A study of Arabidopsis thaliana with 7 samples.

Results

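The comparison described here is the last step of male gametophyte development in Arabidopsis, from tricellular pollen (TCP) to mature pollen grains (MPG). Its members were chosen by their stage labels, without any measured value: 2 TCP arrays and 1 MPG array, 3 of the 7 arrays analysed. The study hybridized RNA of isolated spores to Affymetrix ATH1 arrays, which carry a set of short probes for each of most Arabidopsis genes, at 4 stages. The other 4 arrays, 2 of uninucleate microspores (UNM) and 2 of bicellular pollen (BCP), served to estimate the spread between arrays and to show earlier levels. All plants were of the accession Landsberg erecta (Ler-0) with no genetic modification, grown in compost at 21 °C with 16 h of light and harvested while flowering. TCP was purified on a Percoll step gradient from inflorescences whose open flowers had been removed, and MPG was collected from open flowers. The methods give independently grown plants for the replicates. The TCP isolate held some bicellular pollen besides tricellular grains, and each isolate pools grains of many flowers and both cell types of the grain.

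Tricellular pollen holds a large vegetative cell, which later forms the pollen tube, and a pair of sperm cells inside it. Between this stage and the shedding of mature grains the pollen dehydrates, stops most of its metabolism and keeps a store of mRNAs and proteins. That store serves the rapid outgrowth of the tube through the pistil, which needs wall loosening, vesicle delivery, a dynamic cytoskeleton and signalling at the tube tip.

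Each value below is a hybridization signal on a linear scale, rescaled to the same trimmed mean of 100 on every array, and values are given in the order TCP replicate 1 (TCP1), TCP replicate 2 (TCP2) and MPG replicate 1 (MPG1). For differences, signals under a floor of 20 were raised to 20 and log2 taken. A fold is written as at least N-fold where an array of the lower stage was at the floor. A probe set was tested if it reached 40 on at least 1 of the 7 arrays. It was said to rise or fall when limma gave a Benjamini-Hochberg adjusted p under 0.05 and the MPG signal lay outside both TCP signals. With a single MPG array there is no measure of the spread within mature pollen, which was assumed to equal that of the other stages. The study describes replicates of every stage and reports a lower correlation between its MPG replicates than between its TCP replicates. Only 1 MPG array was available here, so the assumption was not tested. Amounts by which a gene rose or fell are on the log2 scale, given with the standard error of the fit where one follows, a value alone in parentheses is the adjusted p, and a pair with a comma is the log2 difference and the adjusted p. Probe sets differ in how well they bind, so signals are compared between arrays and not between genes.

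At a signal of 40 or more, 9028 probe sets were detected on TCP1, 9542 on TCP2 and 9757 on MPG1. At 80 or more the order turned, with 5578, 5718 and 5497, so MPG1 was then lowest. Of 8319 probe sets at 40 or more on both TCP arrays, 7596 remained at 40 or more on MPG1, and 1144 others reached 40 on MPG1 with both TCP arrays below it. Over the probe sets tested, which do not count as replicates, the correlation of the floored log2 signals was 0.972 between the TCP arrays and 0.902 and 0.906 between MPG1 and each of them. The median difference among probe sets detected on both arrays was 1.16-fold between the TCP arrays and 1.41-fold and 1.38-fold against MPG1. Signal was more concentrated in mature pollen, where the 1000 brightest probe sets held 66.1% of it, against 58.7% and 60.1% in TCP. The log2 ratio of 3′ to 5′ signal of the GAPDH control, a sign of RNA quality, was 1.06, 3.19 and 1.21, with TCP2 highest. The earlier arrays split by replicate number too, at 0.88 on UNM1 and 0.63 on BCP1 against 2.89 on UNM2 and 2.76 on BCP2. The same ratio for ubiquitin was 2.23, 3.01 and 1.91 and for actin -2.25, -1.85 and -2.19. In further probe sets of the same controls MPG1 lay below both TCP arrays, with -0.00, 0.64 and -0.22 for GAPDH, 1.43, 1.78 and 0.34 for ubiquitin and 2.07, 2.41 and 0.99 for actin. Their part in the results was not tested.

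Mature pollen differed from tricellular pollen in both directions. Of 14364 probe sets tested, 721 rose (5.02%) and 1067 fell (7.43%), while the median difference over all of them was 0.00 on the log2 scale with quartiles of -0.42 and 0.48. Falls outnumbered rises here, but the balance turned with no filter on low signals (987 rises and 748 falls) and at a floor of 40 (1124 and 1040). Rises had a median of 2.4-fold against the nearer TCP array and falls of 2.62-fold. Among 8162 named genes tested, 400 rose (4.90%) and 586 fell (7.18%). Without a test, MPG1 lay at least 2-fold above both TCP arrays for 812 probe sets (5.65%) and at least 2-fold below both for 1124 (7.83%). This balance too turned with spiked-control scaling (879 above and 757 below), and with no minimum fold MPG1 lay above both TCP arrays for 5730 probe sets and below both for 4907. The TCP arrays lay at least 2-fold apart from each other for 576 (4.01%). The calls rest on both TCP arrays: without TCP1 or without TCP2 limma made 0 calls, with 3642 and 3759 probe sets at an unadjusted p under 0.05 against 4220 with both. Without a UNM array the counts were 80 and 199, and without a BCP array 325 and 526. Scaling on 9 spiked controls left 1 rise and 0 falls, with 476 at an unadjusted p under 0.05. A fit with the replicate number as a block raised the counts to 1124 and 1450. RNA came from whole isolates, so fewer cells of a kind and less mRNA per cell cannot be told apart in any of these values.

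**Figure D1:**
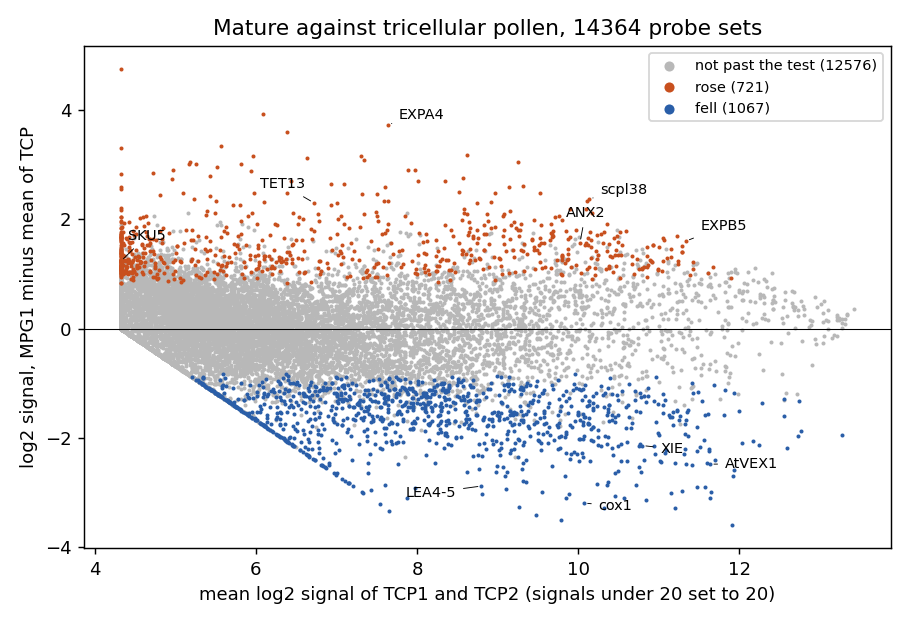
Log2 difference of MPG1 from the mean of TCP1 and TCP2 (vertical axis) against that mean log2 signal (horizontal axis) for 14364 probe sets, with rises in orange, falls in blue and all others in grey. The 721 rises reach down to TCP signals at the floor, seen as a vertical edge at the left, and the 1067 falls end on a diagonal edge where MPG1 is at the floor.

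The share of probe sets that changed differed between levels of signal. The levels are means of the same TCP and MPG signals that are compared, and at low means the floor limits falls more than rises. These shares are therefore set in part by the classes and the floor. Among 5011 probe sets with a mean below 40 over the 3 arrays, 4.01% rose and 1.34% fell. Between 100 and 400 the shares were 5.06% and 13.8%, and between 400 and 1000 they were 9.59% and 20.6%. For 864 probe sets with a mean of 1000 or more, rises outnumbered falls at 154 against 134, and the median difference was 0.41 on the log2 scale.

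Of the genes of wall loosening, EXPA4 was among the 15 largest rises of named genes. The counts of each list are to be read against 4.90% rises and 7.18% falls over all named genes. Expansins loosen the bonds between wall polymers, and of 19 on the array 10 were tested, of which 2 rose and 1 fell, with a list median of 0.17 on the log2 scale against 0.00 for all probe sets. EXPA4 (AT2G39700), an alpha-expansin, gave 235, 169 and 2642, a rise of 3.73 ± 0.26 (log2, SE of the fit) with an adjusted p of 0.0094. Its MPG signal was 11.2-fold above the higher TCP array, and its 4 UNM and BCP signals lay between 1.31 and 10.1. EXPB5 (AT3G60570), a beta-expansin, gave 2511, 2676 and 7863, a log2 rise of 1.6 with an adjusted p of 0.016. In contrast, EXPA24 (AT5G39310) gave 373, 440 and 197 and fell by 1.04 (adjusted p = 0.035). The other 7 expansins tested had signals of at most 62.7 on these 3 arrays and none passed.

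Among 15 tested glycosyl hydrolases of the wall, 1 rose and 0 fell, with a median of 0.20 (4.90% of named genes rose and 7.18% fell). The riser was GH9B11 (AT2G44560), a member of the endoglucanase family that cuts cellulose-like chains, with 479, 661 and 3383 (5.12-fold above the nearer TCP array, adjusted p = 0.0096). Its family member GH9A4 (AT3G43860) read 2644, 2446 and 5156 and did not pass (adjusted p = 0.071). Both TCP arrays lay below MPG1 for each of these genes. The pectate lyase gene AT59, encoding an enzyme that cleaves pectin, gave 3379, 3277 and 6656 and missed the threshold (adjusted p = 0.11).

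Enzymes of other wall and secretory families changed in a few members each, beside 4.90% rises and 7.18% falls over all named genes. BGLU36, a beta-glucosidase gene, rose from 2158 and 1775 to 5598 (adjusted p = 0.036), and BGLU15 rose from 196 and 159 to 383 (0.04). Of the same 8 tested beta-glucosidases, BGLU40 fell from 621 and 663 to 153 (0.0099) and BGLU41 from 40.2 and 40.7 to 21.7 (0.048). Members of this family therefore moved in opposite directions in the main fit. At a floor of 10 the list held 0 rises and 1 fall, and with quantile normalization 1 of each. Serine carboxypeptidase-like proteins remove residues from the end of proteins or transfer acyl groups, and 2 of 17 tested rose and 0 fell, with a median of 0.00. The gene scpl38 (AT2G05850) gave 940, 1354 and 5834, a log2 rise of 2.37 ± 0.27 with an adjusted p of 0.011, while the other, scpl41, was at the floor in TCP and reached 43.0. SBT3.12, a subtilase gene, rose from 111 and 95.5 to 362 (0.023). TBL18, of a family of polysaccharide O-acetyltransferases, fell from 117 and 122.9 to 21.96 (0.0096), whereas TBL19 rose from 8.06 and 20.6 to 46.9 (0.023).

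The receptor genes ANX1 and ANX2 rose. ANX1 and ANX2 are receptor kinases that keep the growing tube from bursting before it reaches the ovule, and they were the 2 that rose among 8 receptor kinases and signalling peptides tested, of which 0 fell, against 4.90% of named genes that rose. The list held 1 rise at a floor of 10 and without a BCP array, and 0 without a UNM or a TCP array. ANX1 (AT3G04690) gave 844, 940 and 1755 (log2 0.98, adjusted p = 0.036) and ANX2 (AT5G28680) gave 1079, 1004 and 3084 (log2 1.57, adjusted p = 0.017). MPG1 lay above both TCP arrays for each, by 1.87-fold and 2.86-fold against the nearer. The peptide genes RALFL25 and RALFL26, of the family of rapid alkalinization factors, read 3846, 4556 and 6060 and 4369, 4883 and 8557 and did not pass (0.41 and 0.18). The median of the list was 0.71. SCN1, an inhibitor of the ROP GTPases that place the tip, gave 3405, 3495 and 6021 (adjusted p = 0.07).

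A few cytoskeleton genes rose and a few fell, beside 4.90% rises and 7.18% falls over all named genes. Tubulins form microtubules, and of 8 tested genes of this list 3 rose and 1 fell, with a median of 0.27. TUA1 (AT1G64740), an alpha-tubulin gene, gave 1912, 1790 and 4648 (log2 1.33, adjusted p = 0.035). TUA6 gave 1793, 1767 and 3808 (1.10, 0.034) and TUB9, a beta-tubulin gene, gave 3773, 3881 and 7302 (0.93, 0.048). The TCP replicates were close together for each of these genes and MPG1 was apart from them. TUB7 went the other way, from 339 and 318 to 134, and fell by 1.29 (0.025). With quantile normalization, 0 of these 4 calls remained, with their directions unchanged. Tubulin genes are alike in sequence, so a probe set can bind mRNA of a related gene.

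Actin filaments carry vesicles to the tip, and class XI myosins are the motors that run along them. Of 13 tested genes of actins and actin-binding proteins 1 rose and 2 fell, with a median of 0.08 (4.90% of named genes rose and 7.18% fell). XIE (AT1G54560) gave 1865, 1697 and 405 and fell by 2.14 ± 0.23 (adjusted p = 0.011). XIC (AT1G08730) gave 1105, 1216 and 332 and fell by 1.80 (0.018). The riser was VIIIB, a class VIII myosin gene, with 196, 205 and 457 (0.039). The actin genes themselves did not pass: ACT11 read 3628, 3650 and 4040 and ACT12 read 620, 656 and 1267 (0.91 and 0.075). PLIM2b, of the LIM proteins that bundle actin filaments, gave 3129, 2682 and 5174 (0.078).

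A few vesicle trafficking genes also rose or fell, beside 4.90% rises and 7.18% falls over all named genes. Of 15 tested genes of the exocyst, the complex that tethers secretory vesicles at the plasma membrane, and of SNARE and RAB proteins, 1 rose and 3 fell, with a median of -0.23. The riser was KEU (AT1G12360), a Sec1-type protein that acts with SNAREs in membrane fusion, at 444, 508 and 1385 (log2 1.54, adjusted p = 0.021). The 3 that fell were all exocyst subunits: SEC10 gave 187, 251 and 75.6 (0.023), SEC15A gave 145, 163 and 58.9 (0.033) and SEC5A gave 327, 284 and 148 (0.035). Of these 3 falls of the list, 1 was still called with quantile normalization and 1 without a BCP array. Other exocyst genes tested, SEC5B, SEC6, SEC15B and EXO84B, differed by -0.23, -0.39, -0.14 and -0.50 on the log2 scale and did not pass. TET13, a tetraspanin, which is a membrane protein that organizes protein clusters, was the only 1 of 10 tetraspanins that passed, with 100.8, 110 and 517 (log2 2.30, adjusted p = 0.0094).

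**Figure D2:**
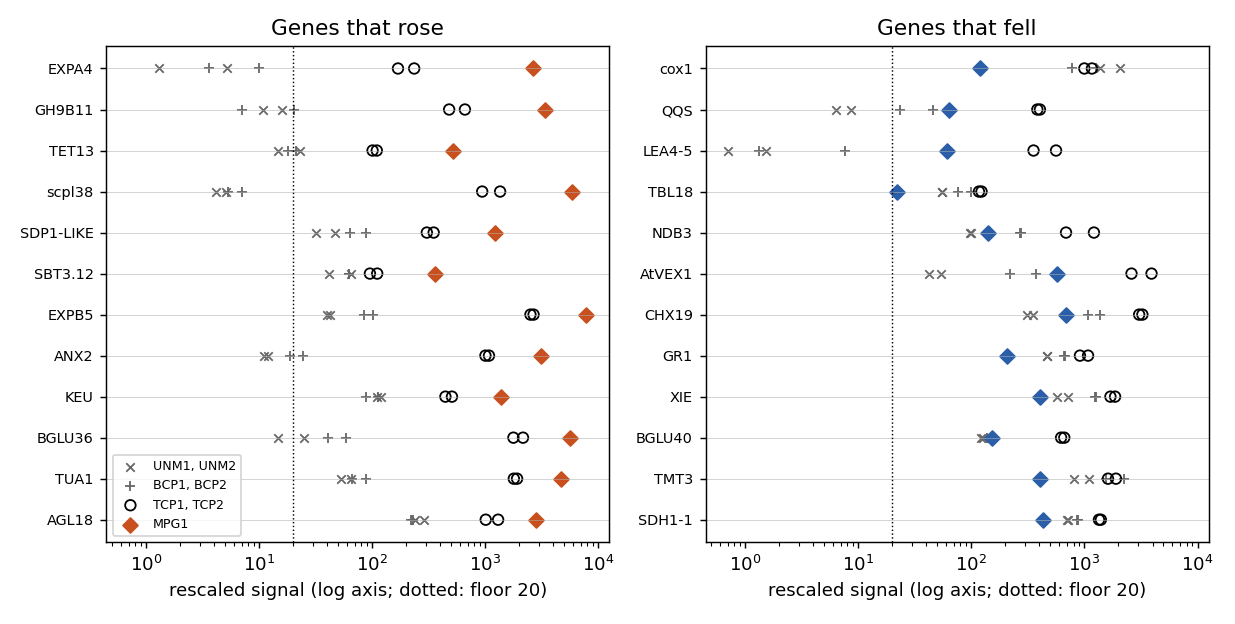
Rescaled signal on a log axis of 12 genes that rose (left) and 12 that fell (right), with a cross or plus for each UNM and BCP array, a circle for each TCP array and a diamond for MPG1; the dotted line marks the floor of 20. EXPA4 lies at 2642 in MPG1 against 235 and 169 in TCP, and cox1 at 118 against 998 and 1164. QQS and GR1 were chosen after their values were seen, and the others follow the rule for named genes.

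Among genes of sugar and cation transport a few fell and none passed as a rise. Over all named genes 4.90% rose and 7.18% fell. Of 14 tested sugar transporters 0 rose and 2 fell, with a median of 0.19. AtVEX1 (AT5G62850), a SWEET sugar efflux carrier of the vegetative cell, gave 3918, 2606 and 572 and fell by 2.48 ± 0.42 (adjusted p = 0.023), after signals of 42.2 to 372 at UNM and BCP. TMT3, a sugar carrier of the vacuole membrane, gave 1615, 1898 and 402 and fell by 2.12 (adjusted p = 0.02). Its UNM and BCP signals lay between 815 and 2260, all above MPG1. SWEET8 moved upwards, with 871, 820 and 1894, and did not pass (0.12). Of 4 tested cation channels and exchangers 0 rose and 1 fell, with a median of 0.65. The gene that fell was CHX19 (AT3G17630), of the cation and proton exchangers, which gave 3045, 3254 and 687 and fell by 2.20 (0.011). For the other 3, MPG1 lay above both TCP arrays and none passed. CHX6B gave 225, 213 and 431, CHX15 gave 1206, 1202 and 1908, and chx28 gave 198, 265 and 355. The gene cwINV6, named as a cell wall invertase, fell from 41.1 and 49.6 to below the floor (0.04) and was not called at a floor of 40.

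Of the genes of dehydration tolerance a few fell, beside 4.90% rises and 7.18% falls over all named genes. Late embryogenesis abundant (LEA) proteins protect drying cells, and of 6 tested LEA and dehydrin genes 0 rose and 2 fell, with a median of -0.30. LEA4-5 (AT5G06760) was at most 7.64 on the UNM and BCP arrays, reached 561 and 354 in TCP and read 60.7 in MPG and fell by 2.88 ± 0.31 (adjusted p = 0.011). AT2G44060 fell from 706 and 527 to 151 (0.035). The other 4 did not pass, and AT2G46140 remained among the bright signals at 3464, 3767 and 2257 (0.12). Of 7 tested genes in the antioxidant list only ATMDAR2, a monodehydroascorbate reductase that recycles ascorbate, passed, with 526, 622 and 202 (0.02). Outside this list, and seen after their values, the glutathione reductase gene GR1, given below, and the ascorbate peroxidase gene SAPX also fell. SAPX gave 312, 307 and 131. Oil breakdown was represented by SDP1-LIKE, a triacylglycerol lipase gene, which rose from 304 and 350 to 1208 (log2 1.89, adjusted p = 0.025), and by its relative SDP1, which read 93.7, 89.8 and 187 (0.069).

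Most tested nuclear genes of mitochondrial respiration fell. Of 10 in this list 6 fell and 0 rose, with a median of -1.15, against 7.18% of named genes that fell. The number of falls was 4 without a BCP array, 1 without a UNM array and 0 without a TCP array. NDB3 (AT4G21490), an alternative NADH dehydrogenase of the outer face of the inner membrane, gave 1213, 687 and 140 and fell by 2.70 ± 0.35 (adjusted p = 0.015), and NDB2 gave 782, 624 and 209 (0.026). SDH1-1 (AT5G66760), the flavoprotein of succinate dehydrogenase, gave 1343, 1397 and 429 and fell by 1.67 ± 0.20 (0.012). The remaining 3 that fell, given here after their values were seen, were SDH2-2, the iron-sulfur subunit of the same enzyme (2099, 2168 and 813), FRO1, a subunit of complex I (1787, 1724 and 731), and CYTC-2, a cytochrome c gene (3124, 3483 and 1609). The second copies CYTC-1 (2051, 2053 and 1045) and SDH2-1 (2383, 2386 and 1827) lay below both TCP arrays too and did not pass (0.072 and 0.28). For all 6 genes that fell, both TCP signals were above the 4 UNM and BCP signals.

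Among genes encoded in the mitochondrial genome, 7 of 14 tested fell and 0 rose, with a median of -1.41, against 7.43% of all probe sets that fell. The number of falls was 4 at a floor of 40, 4 without a BCP array, 3 without a UNM array and 0 without a TCP array. These counts use the brightest probe set of each gene, and over all 23 probe sets of these genes 8 fell and 1 rose. The largest fall among the 14 genes was that of cox1, the catalytic subunit of cytochrome c oxidase, with 998, 1164 and 118 (-3.19 ± 0.39, adjusted p = 0.013). The other subunit on the array, cox2, went from 66.3 and 82.7 to below the floor (0.012). Of 6 tested mitochondrial NADH dehydrogenase subunits 4 fell, with a group median of -2.02, among them nad9 at 82.0, 116 and 21.7 and nad5 at 87.4, 105 and 17.03. Over 4 genes of cytochrome c biogenesis the median was -0.50. A large part of the mitochondrial genome also lies in the nuclear genome, so these copies cannot be told apart by the probes.

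Among plastid-encoded genes, all 69 on the array were tested, 16 fell and 0 rose (against 7.43% of all probe sets that fell), and MPG1 lay below both TCP arrays for 52 of them and above both for 2. Their median was -0.77. By complex, 3 of 5 photosystem I genes fell (median -1.66), 5 of 15 of photosystem II (-0.97), 3 of 15 ribosomal protein genes (-0.80) and 1 of 10 of the NADH dehydrogenase-like complex (-0.37). The photosystem gene psaJ gave 732, 582 and 124 and fell by 2.40 (0.021), and psbZ gave 158, 105 and 20.7 and fell by 2.64 (0.012). Both had already been higher at UNM, at 1557 and 2457.5 for psaJ and 997 and 1286 for psbZ. The count of falls depends on the settings, with 24 under the replicate block, 12 with quantile normalization and 9 at a floor of 40. Of 9 tested nuclear photosynthesis genes, by comparison, PSBW alone fell (90.5, 79.7 and 21.3). The study primed cDNA with oligo(dT), which binds poly(A) tails, so signals of plastid and mitochondrial genes depend on tailed RNA. The share of their RNA with such tails was not measured.

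**Figure D3:**
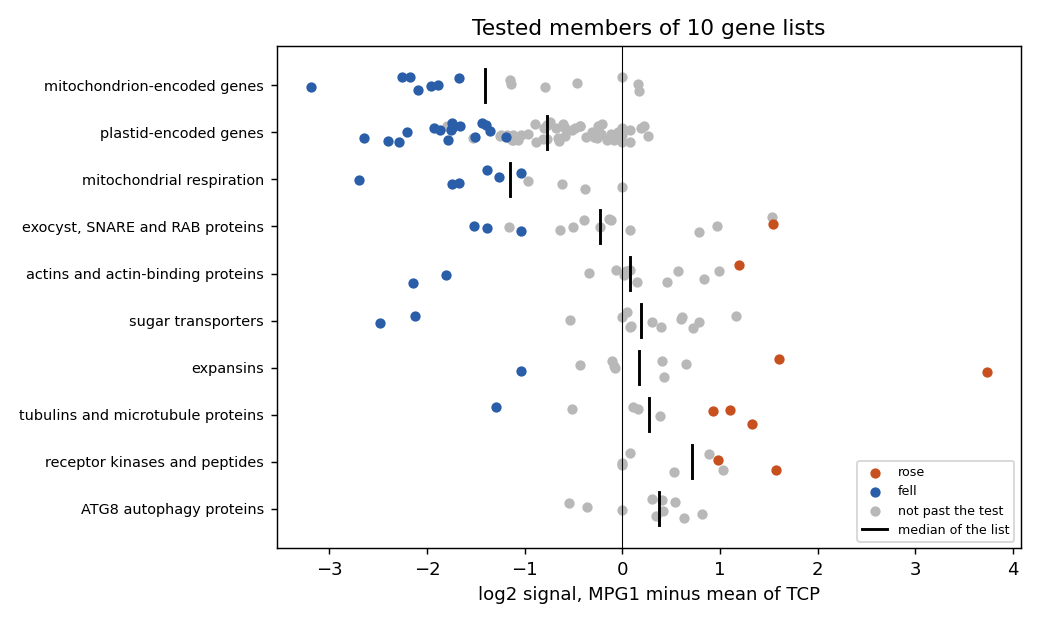
Log2 difference of MPG1 from the mean of the TCP arrays (horizontal axis) for every tested member of 10 gene lists (rows), with rises in orange, falls in blue, members that did not pass in grey and a bar at the median of each list. The medians of mitochondrion-encoded genes (-1.41), mitochondrial respiration (-1.15) and plastid-encoded genes (-0.77) lie farthest to the left.

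Several other genes of metabolism changed, chosen here after their values were seen. PPDK, pyruvate orthophosphate dikinase, gave 2070, 2237 and 6554 and rose (adjusted p = 0.049, or 0.057 with the replicate block). IVD, isovaleryl-CoA dehydrogenase of leucine breakdown, rose from 52.5 and 73.0 to 268 (0.013). In the same pathway MCCA, a subunit of methylcrotonyl-CoA carboxylase, fell from 67.7 and 74.8 to below the floor (0.011), and ETFQO, which passes electrons from IVD to the respiratory chain, fell from 83.96 and 72.9 to below the floor (0.012). Genes of 1 pathway thus moved in opposite directions. GR1, a glutathione reductase, gave 1076, 912 and 207 (0.0094), and IDH-VI, an isocitrate dehydrogenase subunit, gave 1088, 1049 and 359 (0.016). QQS, a gene linked to starch content, gave 404, 383 and 63.9 (0.019).

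Transcription factor genes were read against shares of 4.90% rises and 7.18% falls over all named genes. Of 419 on the array out of 1350 in the study's list, 214 were tested, 13 rose and 10 fell, with a median of 0.09. AGL18 (AT3G57390), a MADS-box factor, gave 1010, 1300 and 2800 (log2 1.29, adjusted p = 0.033), and AGL29 gave 334, 380 and 725 (1.03, 0.034). The bZIP gene AT2G40620 gave 603, 670 and 1692 (1.41, 0.024). These were the 3 that rose, with 0 falls, among 9 tested genes listed for their role in pollen. The MADS-box factors AGL30, AGL65, AGL66 and AGL104, which act late in pollen, differed by 0.04, 0.16, -0.20 and -0.67 and did not pass. Of 12 tested MADS-box genes in the study's list 2 rose and 1 fell. AGL16, named after its values were seen, was the one that fell, from 305 and 332 to 147 (log2 -1.12). The largest rise of the whole list was that of the trihelix gene AT3G11100, from 135 and 111 to 579 (2.25 ± 0.37, adjusted p = 0.023). HMT-1 stands in this list among AP2-EREBP genes, although its symbol is that of a homocysteine methyltransferase, and rose from 388 and 534 to 1693 (0.018). By fold against the nearer TCP array, the largest falls were those of AT3G23060 (179, 221 and 69.2), AT1G19000 (95.5, 99.7 and 38.0) and AT1G04990 (191, 197 and 81.0).

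Of the 82 core translation factors listed, 32 were on the array. Of 29 tested 3 rose and 1 fell, with a median of 0.02 (4.90% of named genes rose and 7.18% fell). The number of rises was 1 with quantile normalization and 5 with scaling to the 75th percentile. EIF4A-2 (AT1G54270), an RNA helicase of translation initiation, gave 1188, 1674 and 433 and fell by 1.70 ± 0.34 (adjusted p = 0.034). The rises were AT1G72340, a subunit gene of eIF2B, the exchange factor of initiation, with 156, 255 and 749 (0.031), a second eIF2B gene, AT2G34970, with 21.7, 24.2 and 51.4 (0.039), and AT5G54940 with 312, 375 and 717 (0.047, or 0.052 with the replicate block). Of the genes the study discusses by name, 3 could be matched and 0 passed: AT1G74990 read 112, 115 and 167, AT3G07920 read 68.0, 36.1 and 38.4, and AT4G30680 stayed below the floor.

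**Figure D4:**
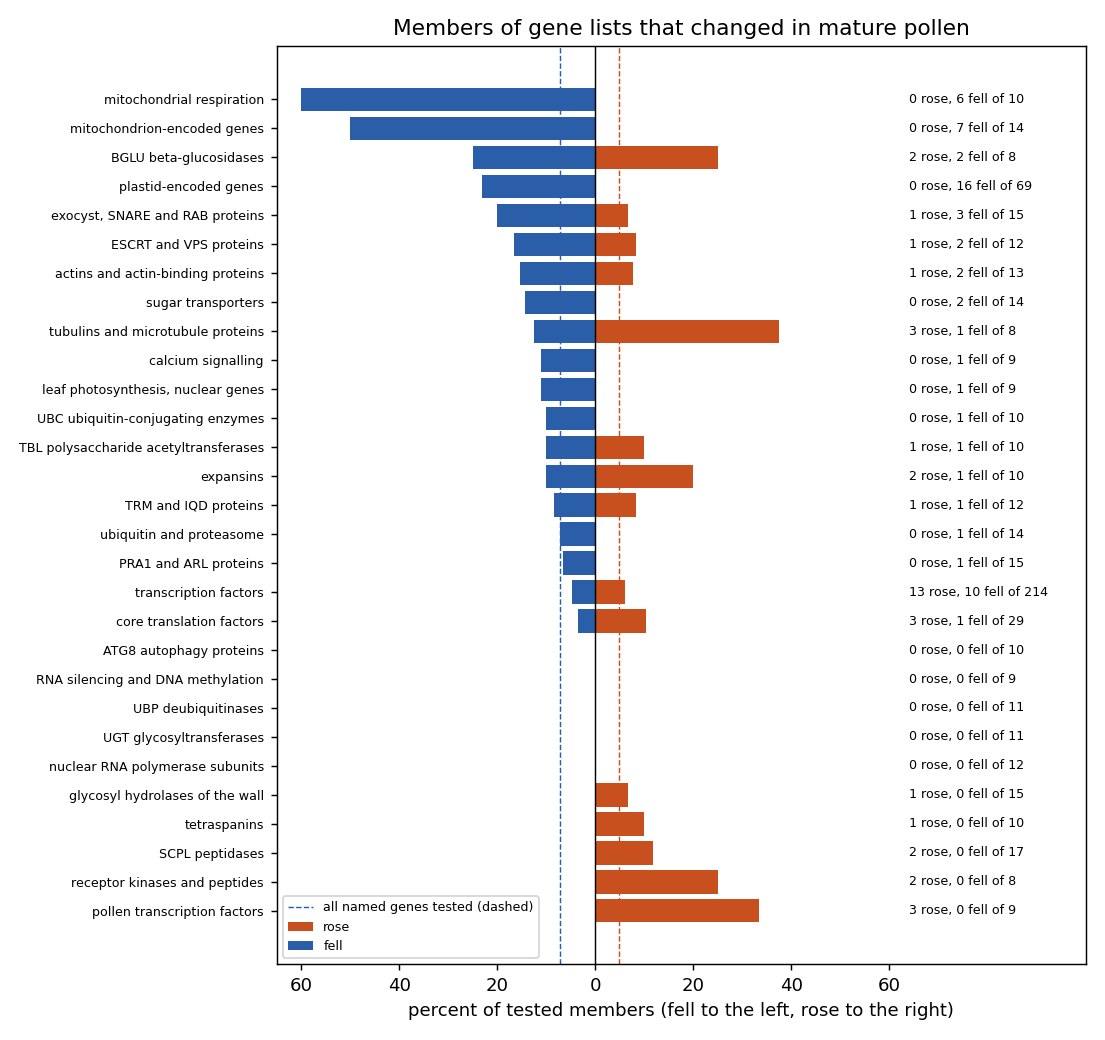
Percent of tested members that fell (to the left, blue) and rose (to the right, orange) for gene lists with at least 8 tested members, with the counts printed at the right; dashed lines mark the shares over all named genes, 7.18% for falls and 4.90% for rises. Mitochondrial respiration (6 of 10) and mitochondrion-encoded genes (7 of 14) have the longest bars of falls, and tubulins (3 of 8) the longest of rises.

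The largest changes of all named genes were mostly at loci named only by number. AT4G33860 was at 4.84 and 3.03 in TCP and 539 in MPG, at least 27-fold higher, with a log2 rise of 4.75 ± 0.19 and an adjusted p of 0.0068. It was at most 1.41 at UNM and BCP, so mature pollen alone was above the floor. AT3G06150 gave 57.5, 80.3 and 1029 (12.8-fold) and AT5G20390 gave 637, 586 and 5072 (7.96-fold). AT1G30710 gave 330, 471 and 3541 (7.52-fold). In the other direction AT1G71680 gave 3819, 3872 and 318, 12-fold below the nearer TCP array, and fell by 3.60 ± 0.31 (adjusted p = 0.0094). AT3G23300 gave 717, 705 and 66.8 (10.6-fold), AT3G09930 gave 1798, 1877 and 208 (8.65-fold) and AT2G25890 gave 3198, 3243 and 409 (7.82-fold). In each of these the TCP replicates differed by far less than either did from MPG1. The 15 largest rises of named genes ranged from 5.52-fold to at least 27-fold and the 15 largest falls from 7.16-fold to 12-fold.

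The genes that rose had different earlier histories, given here as a description, since UNM and BCP signals entered the filter and the spread of the fit. Of the 721 rises, 259 (35.9%) were below 40 on all 4 UNM and BCP arrays. Such a probe set passed the filter only through TCP or MPG, and signals at the floor add no spread, so this share is raised by the choice and is not compared with that of all probe sets tested. Both TCP arrays already exceeded all UNM and BCP arrays for 371 (51.5%, with 24.7% over all tested). MPG1 was the highest of the 7 arrays for 560 (77.7%). These shares too are set in part by the choice, through the filter and the TCP and MPG signals. GH9B11, scpl38 and ANX2 had both traits, with at most 24.4 on every UNM and BCP array. PIPK11, a phosphatidylinositol phosphate kinase gene of the pollen tube named after its values were seen, read at most 28.5 there and then 784, 1296 and 3536.

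A smaller part of the rises, 207 (28.7%), had all 4 UNM and BCP signals above both TCP signals, so that the low point was at TCP. Such a drop was seen for 45% of all probe sets tested. The TCP signals entered the choice of rises, so this share is not compared with that of the rises. AT1G69840 started at 561 and 369 in microspores and 366 and 252 in bicellular pollen, dropped to 58.1 and 67.1 at TCP and gave 553 at MPG. AT5G51970 gave 137 and 138 in microspores, 124 and 117 in bicellular pollen, 38.8 and 58.2 at TCP and 480 in mature grains. For AT1G69840 mature pollen came back to within the range of UNM, and for AT5G51970 it went beyond all earlier arrays. AT5G39850 returned only in part, from 1324 and 1176 at UNM and 11.3 and 7.46 at TCP to 120 at MPG.

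Of the 1067 falls, 56 (5.25%) were below 40 on all UNM and BCP arrays. For 478 (44.8%, with 24.7% over all tested) TCP was above all earlier arrays, as for AtVEX1, CHX19 and LEA4-5. For 300 (28.1%, with 45% over all tested) all UNM and BCP arrays were above TCP, as for psaJ and TUB7. The TCP signals entered the choice of falls, so these shares are set in part by it. MPG1 was the lowest of the 7 arrays for 789 (73.9%). The median signals of the falls were 173.0, 227.2, 256.0 and 91.3 at UNM, BCP, TCP and MPG, and those of the rises 52.6, 57.4, 78.9 and 232.9.

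**Figure D5:**
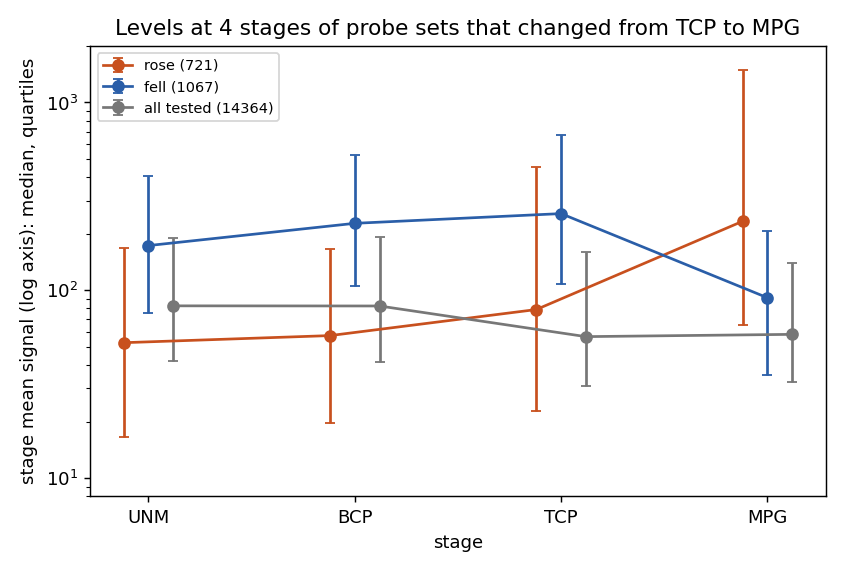
Median of the stage mean signals (points, log axis) with quartiles (bars) at the 4 stages for probe sets that rose or fell from TCP to MPG and for all tested; the sets were chosen by their TCP and MPG values, and UNM and BCP entered the choice through the filter and the spread of the fit. Falls lie above all tested probe sets at UNM (173.0 against 82.6) and BCP (227.2 against 82.5), and rises lie below them (52.6 and 57.4).

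Markers of cells that an isolate could hold were measured in small numbers. The summed signal of 3 sperm genes, MGH3, TET11 and TET12, was 3005.1, 3038.8 and 3623.9, and 0 of the 3 passed. The sperm histone gene MGH3 read 2372, 2435 and 2897 (adjusted p = 0.69). Both tapetum genes on the array were below 40 on all 3 arrays, with sums of 33.1, 25.3 and 17. The 5 meiocyte genes summed to 118.2, 105.5 and 107.5, and 10 nuclear photosynthesis genes of leaves to 401.6, 444.7 and 312.3. The bicellular pollen in the TCP isolate could not be measured apart, and its part in the differences was not tested.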

How the data were processed

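RNA of isolated spores was hybridized to 7 ATH1 arrays (UNM 2, BCP 2, TCP 2, MPG 1). The authors deposited 1 linear intensity per probe set and array, 22810 in all, scaled before deposit to a 2% trimmed mean of 100. The sources used here name no software for this step. The 64 control probe sets were left out, and the remaining 22746 were rescaled on each array to 100, a change of at most 1.0084-fold. Signals under 20 were raised to 20, and 14364 probe sets at 40 or more on at least 1 array were fitted in limma 3.58.1 (R 4.3.3) with all 7 arrays, no block and the contrast MPG minus TCP. The fit had 3 residual and 2.77 prior degrees of freedom. The number of arrays limits the precision.

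Deviations of same-numbered replicates were correlated, by 0.44 between UNM and BCP, 0.22 between UNM and TCP and 0.28 between BCP and TCP (14364 probe sets). The numbers may therefore pair arrays. The main fit has no block, so its standard errors and adjusted p take no account of such a pairing. MPG1 carries the number of TCP1 and was set against the mean of both TCP arrays. Alternatives were other scalings, floors, filters, a replicate block and left-out arrays.

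The array's annotation names 13513 probe sets with 1 gene (13356 genes) and 503 with several, and 8730 have no name here. The brightest of several probe sets was used. Lists were matched by symbol or locus, so they hold only the named members. Lists of extensins and arabinogalactan proteins, phosphoinositide enzymes, proton pumps, aquaporins, cytosolic ribosomal proteins, poly(A)-binding proteins, flower organs and the cell cycle matched 0 genes. The members and lists were chosen with earlier results of these data known. Named genes are the 15 largest rises and 15 largest falls by fold against the nearer TCP array, the 3 largest called rises and falls of each list, every tested member of lists of 6 or fewer, and genes the study names. Other genes stand beside their list's count or are marked. Promoter sequences were not used here.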

Additional observations from a re-analysis of the deposited data

How the results depend on the processing

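The counts of 721 rises and 1067 falls stayed within 1.5 times under quantile normalization (678 and 950), no rescaling (729 and 1071), a floor of 10 (568 and 1083), no filter (987 and 748, where rises outnumbered falls), a minimum of 80 (906 and 1327), a filter on TCP and MPG arrays (906 and 1257) and a trended prior (829 and 1182). Rises numbered 1171 with scaling to the 75th percentile, 1124 at a floor of 40 (with 1040 falls) and 1124 under the replicate block, where falls numbered 1450. The block kept 706 of the rises and 1052 of the falls, and of the named genes it ended only the calls of AT5G54940, BCAT4 and PPDK. Scaling to spiked controls left 1 rise and 0 falls, and a fit on the TCP and MPG arrays alone 0 of each in limma, with 3813 probe sets at an unadjusted p under 0.05. Leaving out an array gave 0 to 325 rises and 0 to 526 falls, 0 without TCP1 or TCP2. The cause of these moves was not tested, except that each removal takes away 1 of 3 residual degrees of freedom. The 2-fold count above both TCP arrays was 1301 to 1398 with a single TCP array, since only 1 value then had to be exceeded. Of 177 changed named genes and list members, none turned direction under an alternative that gave it a value. A minimum of 80 gave a value for 160. Each call had MPG1 outside both TCP arrays, so another floor, filter, prior or set of arrays could not turn its direction. Only another scaling or the block could have done so. Quantile normalization ended 41 of the 177 calls. Low signals limit detection: 8741 of 22746 probe sets were below the floor on MPG1.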

Other observations

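Genes of protein turnover and membrane sorting were read against shares of 4.90% rises and 7.18% falls over all named genes. Of 14 tested genes of ubiquitin and the proteasome 0 rose and 1 fell, with a median of 0.00 on the log2 scale. The gene that fell was UBC18, a ubiquitin-conjugating enzyme, with 114 and 124 in TCP and 39.3 in MPG (limma adjusted p = 0.016). PUB19, a ubiquitin ligase gene, fell from 146 and 122 to 58.9 (0.048). Of 12 tested genes of ESCRT and VPS proteins, which sort membrane proteins into vesicles of the endosome, 1 rose and 2 fell. VPS46.2 rose from 581 and 465 to 1273 (0.028). SNF7.1 fell from 75.2 and 78.8 to 26.3 (0.035) and VPS60.2 fell from 59.4 and 51.4 to below the floor (0.029). Members of the list thus moved in opposite directions in the main fit, while at a floor of 40 it held 1 rise and 0 falls.

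The ATG8 list, proteins of the autophagosome membrane with the ligating enzyme ATG3, had a median of 0.38 over 10 tested genes. MPG1 lay above both TCP arrays for 7 of them and below both for 2, and 0 passed the test. ATG8H gave 642, 774 and 1246 (adjusted p = 0.11), and ATG8C gave 190, 206 and 136 (0.26). The histone list held 6 tested genes with a median of -0.02, of which HON4, a linker histone-like gene, fell from 66.3 and 47.4 to below the floor (0.033).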
